A study of Mus musculus with 2 samples.

Results

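The genes described here encode the subunits of the proteasome. They were taken from both libraries as the rows whose symbol is Psma, Psmb, Psmc or Psmd followed by a number, without the immunoproteasome genes Psmb8, Psmb9 and Psmb10. This rule uses names only, no measured value, and gave 36 of the 21878 genes listed: 8 genes of the 20S alpha subunits, 8 of the 20S beta subunits, 6 of the 19S ATPases and 14 of the 19S non-ATPase subunits. The cells were primary chondrocytes of C57BL/6 mice, the cells that make cartilage, grown in culture and treated with lentivirus in both groups. One culture carried the control hairpin shNC and the other the hairpin shGpx4 against Gpx4, the glutathione peroxidase that detoxifies lipid hydroperoxides and holds back ferroptosis. The comparison asks what the knockdown does to the transcripts of these cells. There was 1 library per group, so no difference was tested and every value describes these 2 libraries. The labels do not give the hairpin sequence, the time after infection, the age of the mice or whether several mice were pooled.

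The 26S proteasome degrades proteins that carry ubiquitin chains. Its barrel-shaped 20S core has outer rings of alpha subunits, which form the gate, and inner rings of beta subunits, which hold the proteolytic sites. The 19S particle caps the core: its ring of ATPases unfolds the substrate and opens the gate, and its non-ATPase subunits bind and remove ubiquitin. Subunits are needed in fixed proportions, and in mammalian cells the transcription factor NRF1 raises their genes together when the proteasome is inhibited. In cartilage, proteasome activity is known for turning over signalling proteins such as the inhibitors of NF-kB.

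The library totals behind the deposited values were 19729142 reads for shNC and 21313211 for shGpx4. Of all genes, 10997 had a mean of at least 1 FPKM (read counts scaled to gene length and library size) over both libraries and are called measured. The ratio of a gene is the log2 of its shGpx4 level over its shNC level, with 1 FPKM added to each. Each interval is an exact 95% Clopper-Pearson interval of the plain FPKM ratio and holds counting error alone, with nothing of how cultures vary. Gpx4 itself stood at 161 FPKM with shNC and 96.2 FPKM with shGpx4. Of 16 chondrocyte markers 6 were measured, among them Col2a1 (8.96 and 58.4 FPKM) and Sox9 (21.8 and 18.2 FPKM), whereas Acan was at 0 in shNC and 0.0061 FPKM in shGpx4 and the deposited value of Matn1 and of Epyc was 0. Of the markers of other cells, 7 of 7 fibroblast, 3 of 6 osteoblast, 2 of 6 macrophage, 2 of 4 adipocyte, 0 of 5 endothelial and 0 of 4 skeletal muscle markers were measured. The summed level of the measured ones was 5053 and 6748 FPKM for fibroblast, 18.9 and 9.26 FPKM for osteoblast, 11.6 and 5.66 FPKM for macrophage and 1875 and 1817 FPKM for chondrocyte markers (shNC first). Most of the chondrocyte sum was Comp, at 1666 and 1421 FPKM, and of the 6 measured chondrocyte markers 3 were higher and 3 lower in shGpx4. Some single markers moved more than the sum of their own list, with Lect1, a chondrocyte marker, at 124 and 270 FPKM. Dcn, a fibroblast marker and itself a large part of that sum, was at 2808 and 5042 FPKM. Postn was at 947.9 and 327.2, Dmp1 at 12.6 and 3.81 and Lyz2 at 7.67 and 1.86 FPKM. The part of these shifts in the proteasome ratios was not tested. Fewer cells of a type and less RNA per cell cannot be told apart in such bulk libraries.

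The proteasome genes were expressed at similar, fairly high levels and differed little between the libraries. Of the 36 genes 34 were measured, all at 10.8 FPKM or more in both libraries, and their median level was 61.7 FPKM with shNC and 62.7 FPKM with shGpx4, against 10.2 and 9.98 FPKM over all measured genes. None of the 34 was at least 1.2-fold higher or at least 1.2-fold lower in shGpx4, while 8.85% of all measured genes were at least 1.2-fold higher and 13.0% at least 1.2-fold lower, 21.8% in either direction. Accordingly none was 1.5-fold apart, against 4.96% of all measured genes. The standard deviation of the ratio was 0.099 over the 34 genes and 0.266 over the 4708 measured genes within their range of mean FPKM. Of the 4708, 303 were at least 1.2-fold higher and 521 at least 1.2-fold lower. Their median level was lower, at 22.8 FPKM with shNC and 22.1 FPKM with shGpx4, so the sets are not matched for level. The smallest reads that give the values ran from 433 for Psmd10 to 4454 for Psmd2 in shNC. Summed over the 34 genes the level was 2034 FPKM with shNC and 2085 FPKM with shGpx4, which is 0.539% and 0.551% of all FPKM of the library.

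The remaining genes of the rule encode tissue-restricted subunits and were at or next to 0. Psmb11, the catalytic subunit of the thymus proteasome, was listed at 0 in both libraries. Psma8, the alpha subunit of the testis proteasome, was at 0.026 FPKM in shNC, the value of at least 1 read, and at 0 in shGpx4, both under the 0.077 FPKM that 3 reads would give in shNC.

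The order of the levels was almost the same in both libraries. Psmb1 was the highest in each, at 118 FPKM with shNC and 108 FPKM with shGpx4, followed by Psmb4 and Psma2, and the lowest were Psmd9, Psmd10 and Psmd5. The last 3 genes encode chaperones that help to assemble the 19S base and leave before it is complete. The highest level was 10.4 times the lowest in shNC and 10.02 times in shGpx4, and in either library 30 of the 34 genes lay within a factor of 2 of the median. Across the 34 genes the rank correlation of levels between the libraries was 0.96, a description only, since genes of one cell are not independent. The largest move was that of Psmd8, from rank 14 to rank 6.

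**Figure D1:**
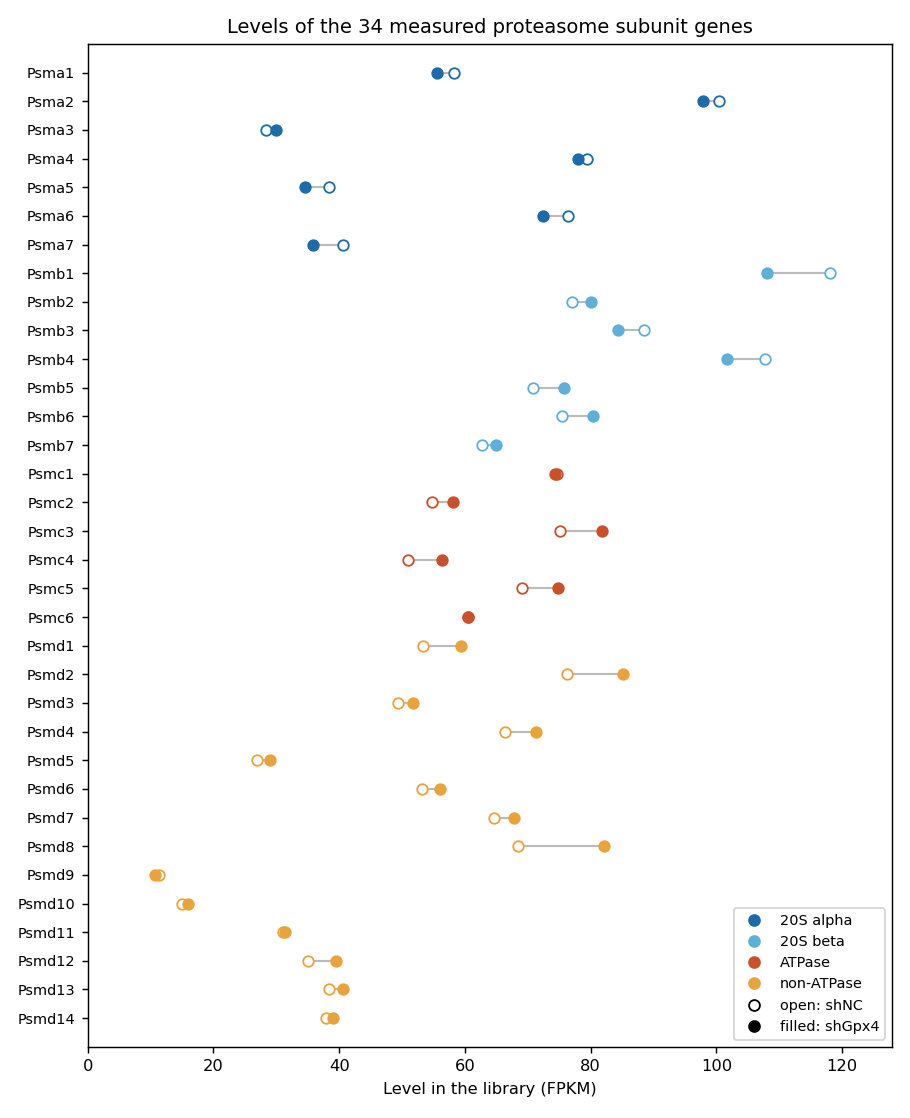
Level of each of the 34 measured proteasome subunit genes in FPKM (horizontal axis), with an open circle for the shNC library and a filled circle for the shGpx4 library, coloured by subunit class. Most pairs of circles nearly touch, Psmb1 lies highest at 118 and 108 FPKM and Psmd9 lowest at 11.4 and 10.8 FPKM.

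The alpha subunit genes leaned to the lower side in the deposited values. Of the 7 measured, 6 had a ratio below 0 and 1 a ratio above 0, with a median of -0.06 beside -0.04 over all measured genes, of which 58.7% lay below 0. Centring on the median of all genes, or rescaling by the 75th percentile or a trimmed mean, put Psma2 and Psma4 above 0 and left 4 of 7 below, and centring on genes of like length (described further on) put Psma1 and Psma6 above 0 too, leaving 2 of 7 below. Psma7 was at 40.6 FPKM with shNC and 35.8 FPKM with shGpx4, the lowest ratio of all 34 genes (-0.18, interval -0.29 to -0.07). The gene lies on chromosome 2 from 180036367 to 180042464 (RefSeq annotation of GRCm38.p6, as for the positions below). Psma5 followed at 38.4 and 34.6 FPKM (-0.15, interval -0.29 to -0.02). For these 2 genes the counting interval lay below 0, which held for 27.3% of all measured genes.

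The other alpha genes were closer to equal. Psma4, whose product carries the tail that closes the gate of the core, was at 79.3 FPKM with shNC and 78.0 FPKM with shGpx4 (-0.02). Psma2 was at 100.5 and 97.8 FPKM (-0.04), Psma1 at 58.2 and 55.6 FPKM (-0.06) and Psma6 at 76.4 and 72.5 FPKM (-0.08). Psma3 was the exception, at 28.3 FPKM with shNC and 29.9 FPKM with shGpx4 (0.08, interval -0.02 to 0.18). The intervals of all 5 hold 0, so these differences were not detectable at this depth.

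Among the beta subunit genes the 3 catalytic ones had ratios above 0 and 3 of the 4 structural ones below, though after centring on genes of like length 3 of those 4 were above 0, since Psmb3 and Psmb4 changed sign. Psmb5, which encodes the chymotrypsin-like site, was at 70.9 FPKM with shNC and 75.7 FPKM with shGpx4 (0.09, interval -0.02 to 0.21). Psmb6, for the caspase-like site, was at 75.5 and 80.3 FPKM (0.09, interval -0.01 to 0.19), and Psmb7, for the trypsin-like site, at 62.8 and 64.9 FPKM (0.05, interval -0.06 to 0.16). Each of these intervals holds 0.

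The 4 non-catalytic beta genes make up the rest of the inner rings. Psmb1 was lower in shGpx4, at 118 against 108 FPKM (-0.13, interval -0.21 to -0.05), the only beta gene whose interval lay away from 0. Psmb4 was at 108 and 101.7 FPKM (-0.08, interval -0.17 to 0.01), Psmb3 at 88.4 and 84.3 FPKM (-0.07) and Psmb2 at 77.1 and 80.03 FPKM (0.05). Over the 7 measured beta genes the median was 0.05, with 4 above 0 and 3 below, beside 41.3% of all measured genes above 0. In shNC the 3 non-catalytic genes with ratios below 0 were the beta genes with the highest levels, and in shGpx4 they still were.

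The ATPase genes lay at or above equal levels. Of the 6, 4 had ratios above 0, Psmc1 and Psmc6 lay just below it but above after these 4 adjustments, and the median was 0.10, with 41.3% of all measured genes above 0. Psmc4 was at 50.9 FPKM with shNC and 56.3 FPKM with shGpx4 (0.14, interval 0.04 to 0.25). Psmc3 was at 75.1 and 81.8 FPKM (0.12, interval 0.04 to 0.20), and Psmc5 at 69.1 and 74.8 FPKM (0.11, interval 0.02 to 0.21). These 3 had intervals above 0, a call met by 18.1% of all measured genes. In yeast and mammals the tails of the subunits from Psmc4, Psmc3 and Psmc1 insert into pockets of the alpha ring and open the gate.

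Psmc1 had a lower ratio than Psmc3 and Psmc4, though its interval overlaps theirs. It was at 74.6 FPKM with shNC and 74.3 FPKM with shGpx4 (-0.01, interval -0.09 to 0.08), and Psmc6 was at 60.54 and 60.51 FPKM (-0.0007, interval -0.09 to 0.09). Psmc2 was at 54.7 and 58.2 FPKM (0.09), with an interval from -0.0002 to 0.18 that just holds 0. All 6 ATPase genes had levels between 50.9 and 75.1 FPKM in shNC, the narrowest range of the 4 classes.

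The non-ATPase genes were higher in shGpx4 with 1 exception, though by little. Of the 14, 13 had ratios above 0 and 1 below, the median was 0.08, and 5 had intervals above 0. Over all measured genes 41.3% had ratios above 0 and 18.1% had intervals above 0. Psmd8, whose product completes the lid in the last step of its assembly in yeast, was at 68.4 FPKM with shNC and 82.1 FPKM with shGpx4. Its ratio of 0.259 (interval 0.18 to 0.35) was the highest of all 34 genes and just under the 1.2-fold line at 0.263, with a fold of 1.197 (1.13 to 1.27). It rests on at least 2043 and 2648 reads. The gene lies on chromosome 7 from 29174187 to 29180673.

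The 3 non-ATPase genes of the 19S base were all higher, each with an interval above 0 (18.1% of all measured genes). Psmd2, which encodes a large scaffold that docks ubiquitin-processing factors, was at 76.2 FPKM with shNC and 85.1 FPKM with shGpx4 (0.16, interval 0.10 to 0.22). Psmd1, the other large scaffold, was at 53.3 and 59.4 FPKM (0.15, interval 0.06 to 0.25). Psmd4, a ubiquitin receptor, was at 66.4 and 71.4 FPKM (0.10, interval 0.01 to 0.20).

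All 8 lid genes had ratios above 0 (41.3% of all measured genes), with a median of 0.07. After Psmd8 came Psmd12, at 35.007 FPKM with shNC and 39.5 FPKM with shGpx4 (0.17, interval 0.06 to 0.29). Psmd14, which encodes the deubiquitinase that strips ubiquitin chains from substrates, was at 37.9 and 39.003 FPKM (0.04, interval -0.08 to 0.16). The other 5 lid genes are Psmd3, Psmd6, Psmd7, Psmd11 and Psmd13, whose ratios ran from 0.02 in Psmd11 to 0.08 in Psmd13 with intervals that hold 0.

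The 3 assembly chaperones under Psmd names were mixed. Psmd5 was at 26.9 FPKM with shNC and 29.0 FPKM with shGpx4 (0.10), and Psmd10, also called gankyrin, at 15.1 and 15.95 FPKM (0.08). Psmd9 was at 11.4 and 10.8 FPKM (-0.07, interval -0.25 to 0.09), the only non-ATPase gene below 0. All 3 intervals hold 0. Psmd10 overlaps the autophagy gene Atg4a by 2867 bases in the annotation, so reads there may be assigned to either.

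**Figure D2:**
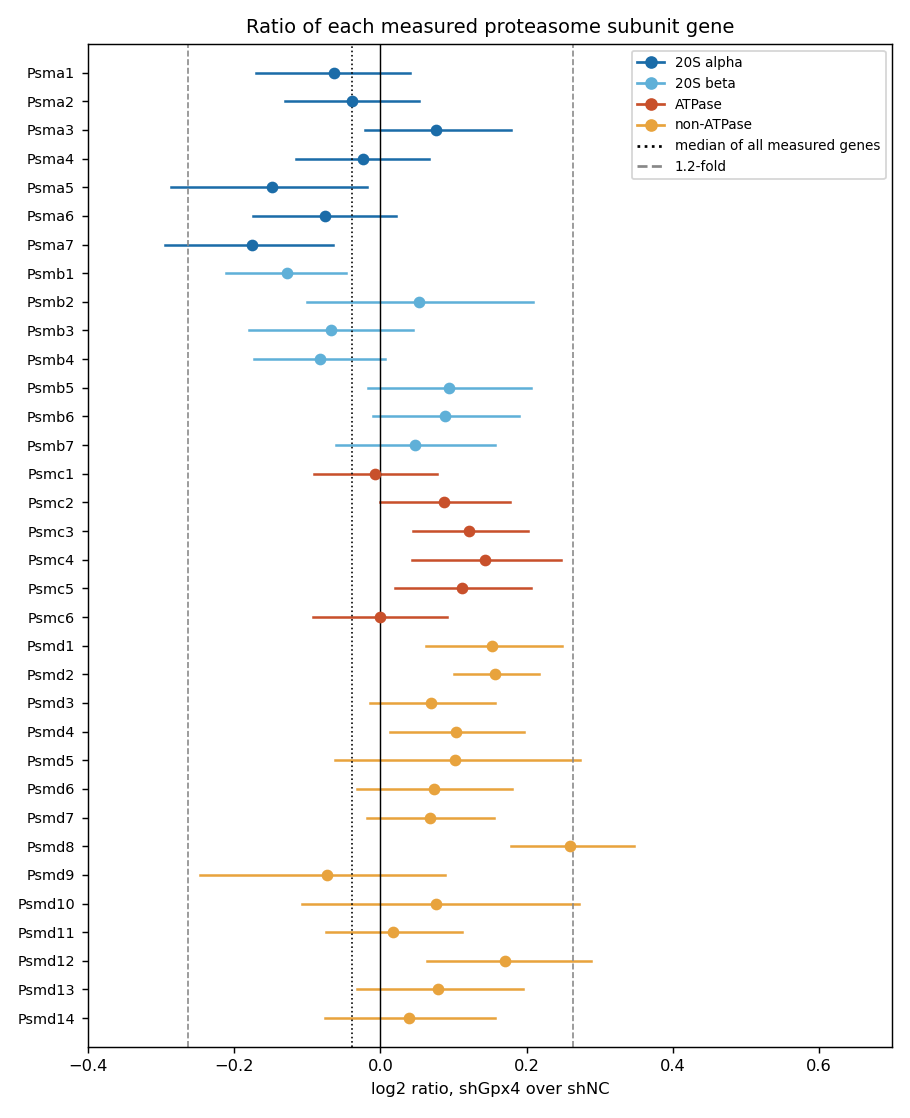
The log2 ratio of shGpx4 over shNC for each measured gene (points; horizontal axis) with its exact 95% counting interval (lines), coloured by subunit class; the dotted line is the median of all measured genes and the dashed lines mark 1.2-fold. No point passes a dashed line, and the ATPase and non-ATPase genes lie mostly to the right of the alpha genes.

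Set side by side, genes of the 19S particle had higher ratios than those of the 20S core. The median was 0.08 over the 20 measured 19S genes and -0.05 over the 14 measured 20S genes, and in 236 of the 280 pairs of a 19S with a 20S gene (84.3%) the 19S gene had the higher ratio. Ratios above 0 were found in 17 of the 20 and in 5 of the 14 genes, against 41.3% of all measured genes, so the 20S count is near that share. Centring on the median of all genes, or rescaling by the 75th percentile or a trimmed mean, gave 19 and 7, and centring on genes of like length 19 and 11. In the deposited values 8 genes had intervals above 0, all of them in the 19S, and 3 had intervals below 0, all of them in the 20S. Over all measured genes 18.1% had intervals above and 27.3% below 0. The 8 of 34 above 0 are thus near the background, and the 3 of 34 below 0 are under it. Within the particles these were 8 of the 20 19S genes and 3 of the 14 20S genes. Intervals were computed without rescaling, and this split depends on that. Centring on the median of all genes raised every ratio by 0.039. That exceeds the distance from 0 of the lower ends for the 20S genes Psmb6 (-0.009), Psmb5 (-0.017) and Psma3 (-0.021). It also exceeds that of the upper end for Psma5 (-0.018). The summed level was 1022 and 999.2 FPKM for the 20S genes, and 1012 and 1086 FPKM for the 19S genes. These groups overlap: Psma3, Psmb2, Psmb5, Psmb6 and Psmb7 lay above Psmd9, Psmc1, Psmc6 and Psmd11.

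**Figure D3:**
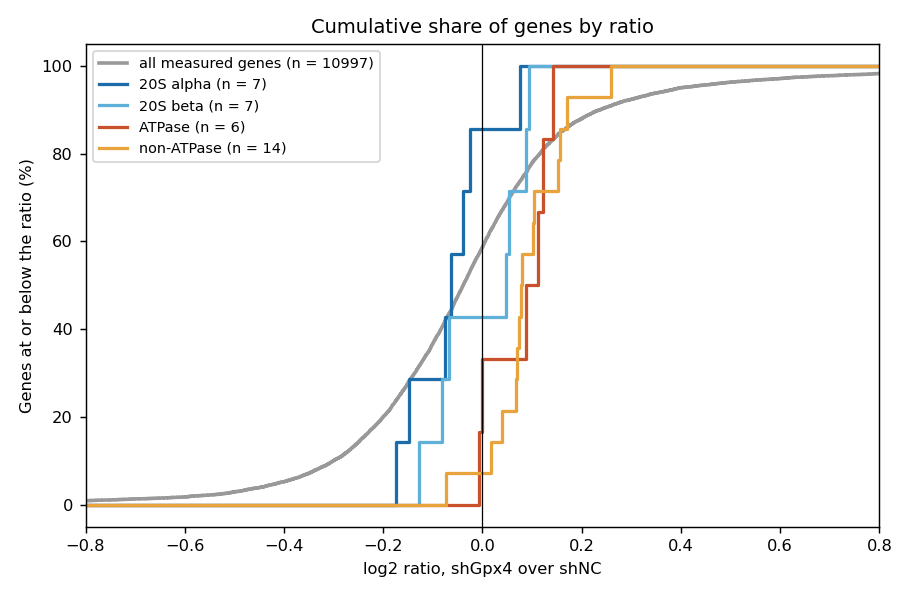
Cumulative share of genes (vertical axis, percent) at or below each log2 ratio of shGpx4 over shNC (horizontal axis) for all 10997 measured genes and for the 4 subunit classes. The class curves are steeper than the grey curve of all genes, and those of the ATPase and non-ATPase genes are shifted to the right of the alpha genes.

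Gene length moved with this contrast. The lengths behind the FPKM values had a median of 1046.5 bases for the measured 20S genes, and for the ATPase and non-ATPase genes the medians were 1533 and 1581.5 bases. These are the smallest lengths that give both values of a gene, and its true length may be a multiple. Over all measured genes the median ratio was -0.09 for lengths over 800 and up to 1200 bases, -0.08 over 1200 and up to 1600 bases, -0.06 over 1600 and up to 2000 bases and 0.00 for those over 6000 bases. When each gene's ratio was set against the median of measured genes of like length, an alternative chosen after seeing the data, the median was 0.02 for the alpha, 0.12 for the beta, 0.16 for the ATPase and 0.15 for the non-ATPase genes. On that scale 30 of the 34 genes lay above 0, the alpha median changed sign, and the 19S median (0.15) stayed above the 20S median (0.05). Across the 34 genes the rank correlation of ratio with length was 0.30, and with mean level -0.09, both descriptions only.

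**Figure D4:**
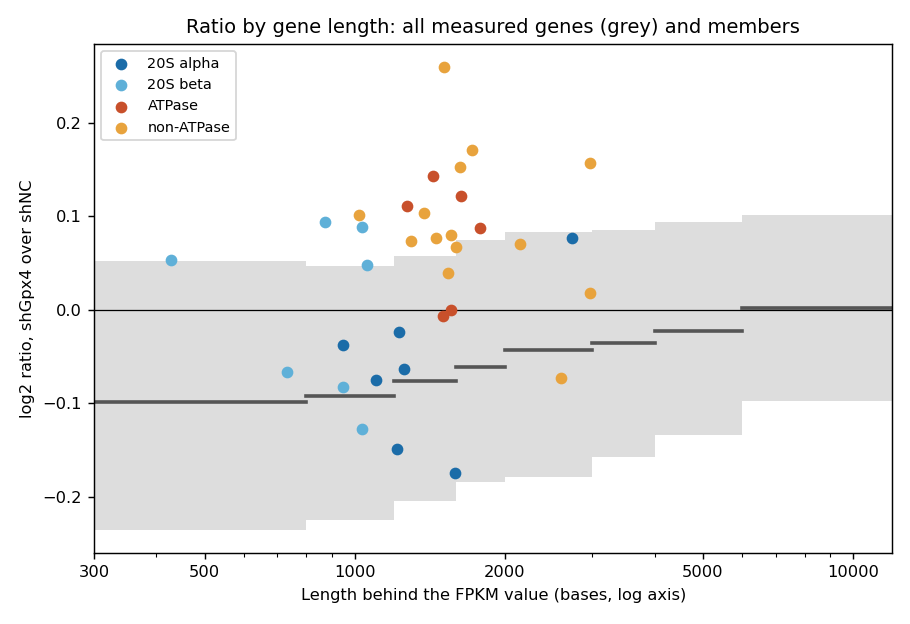
The log2 ratio of shGpx4 over shNC (vertical axis) against the length behind the FPKM value (bases, log axis): grey bars give the median and grey bands the interquartile range of all measured genes in each length range, and points are the measured proteasome genes by class. The grey medians climb from -0.10 for the shortest to 0.00 for the longest genes, and most 19S genes lie above the grey medians at their own length.

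Promoter sequences were looked at for motifs that could tell the classes apart. The table of RefSeq promoters (GRCm38.p6; 250 bases before to 50 after each start) held 31 promoters of 29 of the 36 genes; Psma8, Psmb1, Psmb2, Psmb7, Psmc3, Psmd3 and Psmd7 had no entry. Both strands were searched for TGACNNNGC, the core of the antioxidant response element that NRF1 and NRF2 bind with small MAF proteins, for CCAAT, bound by NF-Y, and for CCGGAAG, bound by ETS factors. No matches of different motifs overlapped. A match describes letters only.

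The ETS motif was found in 10 of 18 promoters of 19S genes and 1 of 13 promoters of 20S genes, against 18.3% of the promoters of measured genes and 8.86% of all 32851 promoters. CCAAT went the other way, with 7 of 13 promoters of 20S genes and 5 of 18 of 19S genes, against 37.9% of measured and 37.4% of all. The ETS matches of 19S genes are shown here because that class had the higher ratios. Of the 9 genes with a match 7 are shown; in Psmd2 the window lies inside the annotated gene and in Psmd13 the match reaches its start, and neither is printed. Each line reads 5′ to 3′ along the strand of the gene and ends before its start site, with the match in capitals, as CTTCCGG where it lies on the opposite strand.
Psmc1: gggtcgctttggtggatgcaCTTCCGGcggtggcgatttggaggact
Psmc2: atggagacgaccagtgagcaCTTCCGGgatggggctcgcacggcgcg
Psmc6: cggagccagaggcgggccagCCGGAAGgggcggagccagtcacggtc
Psmd4: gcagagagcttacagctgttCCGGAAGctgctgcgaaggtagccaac
Psmd6: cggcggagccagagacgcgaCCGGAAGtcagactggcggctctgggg
Psmd11: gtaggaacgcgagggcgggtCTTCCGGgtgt
Psmd12: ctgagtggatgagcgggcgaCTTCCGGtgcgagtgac
They lie at chr12:100110154-100110200 (+), chr5:21785171-21785217 (+), chr14:45329704-45329750 (+), chr3:95042713-95042759 (-), chr14:14120964-14121010 (-), chr11:80428584-80428614 (+) and chr11:107479491-107479527 (+). The ratios of all 9 genes ran from -0.01 in Psmc1 to 0.17 in Psmd12, with Psmd2 at 0.16 and Psmd13 at 0.08. The median ratio was 0.08 over the 10 measured genes with the ETS motif and 0.06 over the 18 without. The motif was in 9 19S genes and 1 20S gene, so class enters this contrast, and the median over all 19S genes was 0.08 too. The 19S genes with a promoter entry but no ETS match ran from -0.07 in Psmd9 to 0.26 in Psmd8.

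Alpha genes with a CCAAT box before the start site are shown next, since 6 of 7 alpha ratios lay below 0 in the deposited values. After centring on genes of like length 2 of 7 did. Shown are 4 of the 5 alpha genes with a box: the window of Psma3, the alpha gene with a ratio above 0 (0.08), lies inside the annotated gene and is not printed. Capitals mark 1 box per gene.
Psma1: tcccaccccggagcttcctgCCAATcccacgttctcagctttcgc
Psma2: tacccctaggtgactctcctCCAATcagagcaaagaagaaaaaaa
Psma6: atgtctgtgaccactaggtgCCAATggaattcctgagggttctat
Psma7: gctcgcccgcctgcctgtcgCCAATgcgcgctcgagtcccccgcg
They lie at chr7:114276190-114276234 (-), chr13:14613168-14613212 (+), chr12:55384173-55384217 (+) and chr2:180042636-180042680 (-). The median ratio was -0.01 over the 11 measured genes with CCAAT and 0.09 over the 17 without, with ranges that overlap (-0.18 to 0.10 and -0.15 to 0.26). The motif was in 7 20S genes, with the unmeasured Psmb11, and in 5 19S genes, so class enters this contrast. Those 19S genes were Psmc1 (-0.01), Psmc2 (0.09), Psmd4 (0.10), Psmd10 (0.08) and Psmd14 (0.04), beside a 19S median of 0.08. Over all members 38.7% of promoters had CCAAT, against 37.9% for measured genes.

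The antioxidant response element core was found in 5 of the 31 promoters (16.1%), close to the 14.4% of promoters of measured genes. The genes were Psmb5, Psmb6, Psmc6, Psmd9 and Psmd12, and 4 of the matches are shown because NRF1 is the known regulator of this gene set; that of Psmb6 lies inside the annotated gene and is not shown. Capitals mark the match, which in Psmc6 and Psmd12 lies on the opposite strand.
Psmb5: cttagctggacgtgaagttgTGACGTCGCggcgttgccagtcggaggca
Psmc6: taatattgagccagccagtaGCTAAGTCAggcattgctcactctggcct
Psmd9: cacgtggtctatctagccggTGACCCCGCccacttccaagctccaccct
Psmd12: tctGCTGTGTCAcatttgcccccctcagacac
They lie at chr14:54618014-54618062 (-), chr14:45329577-45329625 (+), chr5:123228139-123228187 (+) and chr11:107479278-107479309 (+). The 5 genes had a median ratio of 0.09 and ran from -0.07 in Psmd9 to 0.17 in Psmd12, against a median of 0.07 over the 23 measured genes without the core.

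The immunoproteasome genes, left out of the rule, were lower in the shGpx4 library while their constitutive counterparts were not. Psmb8, which replaces Psmb5, was at 36.5 FPKM with shNC and 23.8 FPKM with shGpx4, and its share of the summed level of that pair went from 33.97 to 23.9%. Psmb9 replaces Psmb6 and made up 19.7% of their pair in shNC and 8.98% in shGpx4. Psmb10 replaces Psmb7 and made up 16.4 and 13.1%. The interferon-inducible 11S activator genes were lower too, Psme1 at 86.8 and 75.4 FPKM (-0.20, interval -0.30 to -0.10) and Psme2 at 53.7 and 42.5 FPKM (-0.33, interval -0.47 to -0.21), the latter with a close copy, Psme2b, with which reads may be shared. All 5 genes of this list had intervals below 0, against 27.3% of all measured genes, and their median was -0.33.

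Genes for other caps, receptors and enzymes of the proteasome were spread around 0. Of 15 measured, 7 were above 0 and 8 below, none was at least 1.5-fold apart (background 2.99% higher and 1.96% lower), and the median was 0.00. Psme4, the cap for ubiquitin-independent breakdown of histones, was at 8.59 FPKM with shNC and 9.98 FPKM with shGpx4 (0.19, interval 0.06 to 0.37), and Psme3, the nuclear activator, at 29.6 and 31.9 FPKM (0.11, interval 0.01 to 0.21). The deubiquitinase gene Usp14, whose product sits on the 19S base, was at 16.03 and 17.6 FPKM (0.13, interval 0.03 to 0.24). Adrm1, a ubiquitin receptor of the 19S that the naming rule does not take, was at 41.1 and 43.6 FPKM (0.08), Uchl5, the deubiquitinase it anchors, at 6.93 and 7.62 FPKM (0.12), and the inhibitor gene Psmf1 at 11.9 and 11.4 FPKM (-0.07), all with intervals that hold 0. Fbxo7 was the lowest of this list at 33.9 and 27.1 FPKM (-0.31, interval -0.55 to -0.10), followed by Zfand5 at 15.6 and 13.1 FPKM (-0.24).

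Assembly chaperone genes had a median of 0.00 over 8 measured members, 4 above and 4 below 0, which include Psmd5, Psmd9 and Psmd10. Pomp, which guides the beta rings into place and is destroyed as the first substrate of the new core, was at 76.4 FPKM with shNC and 82.2 FPKM with shGpx4 (0.10, interval -0.06 to 0.27). Psmg3 was at 8.53 and 7.29 FPKM (-0.20) and Psmg2 at 23.1 and 21.3 FPKM (-0.11), both with intervals that hold 0. No gene of this list had an interval away from 0.

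The genes through which NRF1 is made active did not move as one. Nfe2l1, which encodes NRF1, was at 107.9 FPKM with shNC and 109.7 FPKM with shGpx4 (0.02, interval -0.01 to 0.06). Ddi2, the protease that cleaves NRF1 into its active form, was at 5.67 and 7.08 FPKM (0.28, interval 0.13 to 0.51), whereas Ngly1, the glycanase that acts before it, was at 18.5 and 14.1 FPKM (-0.36, interval -0.52 to -0.26). Vcp, the ATPase that pulls NRF1 out of the endoplasmic reticulum, was at 125.9 and 144.7 FPKM (0.20, interval 0.16 to 0.24). Nfe2l2, which encodes NRF2, was at 60.1 and 69.5 FPKM (0.21, interval 0.14 to 0.28), and the small MAF gene Maff at 4.90 and 8.71 FPKM (0.72, interval 0.61 to 1.05), the only one of 14 measured genes of this list at least 1.5-fold apart. The list median was 0.06, with 9 above and 5 below 0.

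Complexes of comparable build gave the following values. The COP9 signalosome, which is built like the 19S lid, had a median of -0.02 over 10 measured genes, with 5 above and 5 below 0, beside the lid's 0.07 with 8 of 8 above. Its highest ratios were those of Cops3 at 33.4 and 37.3 FPKM (0.15, interval -0.15 to 0.47) and Cops6 at 70.1 and 77.9 FPKM (0.15, interval 0.05 to 0.25). The CCT chaperonin, a ring complex of the cytosol, had a median of 0.05 with all 8 genes above 0 (41.3% of all measured genes). Its range was from 0.01 in Cct4 to 0.15 in Cct2, so small ratios that all lay above 0 were not seen in the lid alone. In shGpx4, 18 of 20 mitosis genes stood 1.5-fold or more above shNC (2.99% of all measured genes), with a median of 0.98. Of 76 measured cytosolic ribosomal protein genes 75 were below 0 (58.7% of all measured genes), with a median of -0.28. What these changes contribute to the proteasome ratios was not tested either.

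**Figure D5:**
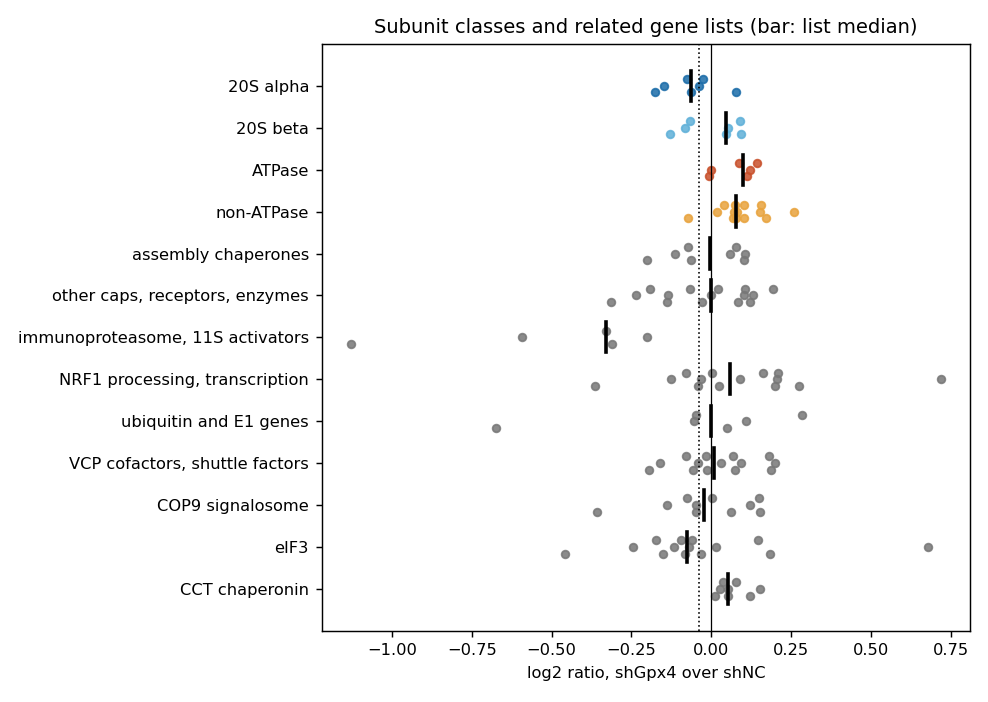
The log2 ratio of shGpx4 over shNC (horizontal axis) of each measured gene of the 4 subunit classes (coloured) and of 9 related lists (grey), with black bars for list medians and a dotted line for the median of all measured genes. The subunit classes and the CCT chaperonin are tightly packed near 0, and the immunoproteasome and 11S activator genes all lie below 0, with a median of -0.33.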

How the data were processed

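Messenger RNA of 2 cultures was measured, with 1 library per group and groups taken from the treatment in the labels. The authors deposited 1 table per library; its values were read as FPKM from the values and from Cufflinks in the submitters' processing notes, which also name Trimmomatic, HISAT2 and GRCm38 without versions or settings. For strand setting and filters the sources used here give nothing, so overlapping genes and pseudogene copies (6 named ones in RefSeq) may share reads.

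Steps between low values gave the library totals, and with these every one of the 15153 genes above 0 gave an integer number of reads and an integer length, to within 6.4e-10. These are the smallest reads and lengths that give both values; the true ones may be a common multiple of them, which would make an interval narrower. Intervals hold counting error only. No p-value was computed, and the computation was checked on simulated data.

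Members, lists (163 of 164 symbols matched, not Paaf1), motifs and alternatives were chosen with earlier results of these data known. Genes to name were all members, Gpx4, the immunoproteasome genes, a set of regulators, and of each other list the 2 highest, the 2 lowest and those at least 1.5-fold apart; the text prints only some of the latter and gives large lists by their counts. Scripts ran under Python 3.11.15 with pandas 2.3.3, numpy 2.4.6, matplotlib 3.10.9 and scipy 1.17.1. Alternatives were a pseudocount of 0.1, 4 rescalings, a minimum mean of 5 FPKM, no filter, recovered reads with 0.5 added, and, added after seeing the data, centring on genes of like length.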

Additional observations from a re-analysis of the deposited data

How the results depend on the processing

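No paired analysis was possible because each group has 1 library. For the same reason no library could be left out. None of the 11 members whose interval lay away from 0 changed sign under any alternative run. The number of members at least 1.2-fold higher went from 0 to 1 (Psmd8) after scaling to the 75th percentile, to a trimmed mean or to the median of measured genes, or centring on genes of like length. The same 3 scalings gave Psma2, Psma4, Psmc1 and Psmc6 ratios above 0, so that 26 of 34 members were above 0, and the alpha median ran from -0.07 to -0.02 over all alternatives but centring on genes of like length, where it was 0.02. Over all measured genes, a minimum mean of 5 FPKM left 569 genes at least 1.2-fold higher, 166 at least 1.5-fold higher and 138 at least 1.5-fold lower, from 973, 329 and 216, since fewer genes were counted. With a pseudocount of 0.1, 359 were at least 1.5-fold lower and with recovered reads 384; the cause was not tested.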

Other observations

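Genes that make ubiquitin or bring it to the proteasome differed in both directions. The E1 enzyme gene Uba1, which activates ubiquitin, was at 76.1 FPKM with shNC and 93.0 FPKM with shGpx4 (0.28, interval 0.24 to 0.33). Rps27a, which encodes ubiquitin fused to a ribosomal protein, was at 168.9 and 105.4 FPKM (-0.67, interval -0.77 to -0.59). Rps27a is itself counted among the 76 measured cytosolic ribosomal protein genes, whose ratios ran from -0.75 to 0.07 with a median of -0.28. It is among the 4 of them that were at least 1.5-fold lower. Of the VCP cofactors, Nploc4 was at 18.03 and 20.7 FPKM (0.19, interval 0.10 to 0.29) and its partner Ufd1l at 24.2 and 21.04 FPKM (-0.19, interval -0.39 to -0.02).

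The translation factor eIF3, which shares part of its build with the 19S lid, had a median of -0.08 over 14 measured genes, with 4 above and 10 below 0. Eif3j2 had the highest ratio, at 1.61 and 3.18 FPKM (0.68, interval 0.58 to 1.39), the only one at least 1.5-fold apart; reads may be shared with its close copy Eif3j1. Eif3h was at 161.3 FPKM with shNC and 117.1 FPKM with shGpx4 (-0.46, interval -0.53 to -0.39), Eif3k at 95.5 and 80.3 FPKM (-0.25, interval -0.33 to -0.16), and Eif3b, second highest, at 57.5 and 65.5 FPKM (0.18, interval 0.12 to 0.25). In the COP9 signalosome the small subunit gene Cops9, listed as Myeov2, was at 66.9 and 52.0 FPKM (-0.36, interval -0.54 to -0.19).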
